A study of Mus musculus with 16 samples.

Results

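Gm21655, Gm21680, Gm21698, Gm7361 and Gm21663 are predicted mouse genes that lie close together on chromosome 5 and read almost alike. They were examined in 16 RNA-seq libraries of C2C12 cells, myoblasts of the mouse that form multinucleated myotubes when serum is lowered. The 5 genes were found among the 49585 genes of both count tables by matching Ensembl gene IDs to these symbols. They had been picked because their counts rose most in TET2-S97E cells, so their difference between TET2-S97E and TET2-WT is described below without a test. Reads can also be shared between the copies, so each gene is given singly and as part of a sum over the 5.

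The first table compared WT with AMPK-KO cells (CRISPR/Cas9 knock-out of Prkaa1 and Prkaa2, the genes of the catalytic AMPK subunits) before differentiation (d0) and after 8 days in differentiation medium (d8), each of the 4 groups being sequenced as 2 libraries. The other table held AMPK-null myoblasts at d0 in which a FLAG-BirA tag had been inserted at the endogenous Tet2 locus. The tagged TET2 was either wild type (TET2-WT) or carried glutamate in place of serine 97 (TET2-S97E), a phospho-mimicking change at the residue that AMPK phosphorylates. Each genotype had 2 clones with 2 libraries each, so that every TET2-S97E and TET2-WT library, controls included, came from cells without AMPK. The knock-in was described as homozygous, and the labels do not say from which AMPK-null line the clones were made or whether replicates were separate cultures. Total counts per library ran from 17883417 to 24663079 among WT and AMPK-KO cells and from 19801909 to 37790358 among the TET2 clones. Levels are given as CPM, a gene's counts scaled to a fixed library size. A count of 3, the upper limit that a count of 0 allows, equalled 0.079 to 0.151 CPM for the TET2 clones and 0.122 to 0.165 CPM for the other libraries.

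TET enzymes oxidise 5-methylcytosine, a step in the removal of DNA methylation, and AMPK is a kinase that senses low cellular energy. Clusters of recently duplicated genes are common in the mouse genome, and the Speer family of chromosome 5, named for glutamate-rich proteins associated with spermatogenesis, is one of them. Its genes are known mainly from the testis. The roles of the 5 predicted genes themselves are not known.

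In GENCODE M21 on GRCm38, the 4 genes Gm21655 (ENSMUSG00000105052.4, chr5:25919632-25926290), Gm21663 (ENSMUSG00000104824.1, chr5:25935791-25942381), Gm21680 (ENSMUSG00000106627.1, chr5:25965961-25972663) and Gm21698 (ENSMUSG00000096045.7, chr5:25982030-25988650) lie in this order on the minus strand, not all of them next to each other. Gm7361 (ENSMUSG00000059645.6, chr5:26257691-26264308) is on the plus strand. The outermost ends lie 345 kb apart. Each gene has 5 exons in its longest transcript, which measures 2864 bases in Gm21663, 2975 in Gm21655 and Gm21680, and 2995 in Gm21698 and Gm7361. All are annotated as protein coding except Gm21655, a processed transcript. Over the 10 pairs, transcript identity ran from 89.36% (Gm21680 with Gm21663) to 99.53% (Gm21655 with Gm21680, 14 differences in 2975 aligned bases). Their identity with Speer4a was 92.57 to 95.67%. The coding sequence of 801 bases, present in the 4 protein-coding genes, was 96.38 to 99.38% identical between pairs. How alike the copies are can be seen in exon 2, shown because a read inside it can fit both Gm21655 and Gm21680. It is given as transcribed, 5′ to 3′, with capitals where a base differs from Gm21680, and with the named gene Speer4a last. The exons are at chr5:25924926-25925085 (Gm21655), chr5:25971299-25971458 (Gm21680), chr5:25987288-25987447 (Gm21698), chr5:25941015-25941174 (Gm21663) and chr5:26038187-26038346 (Speer4a), all on the minus strand, and chr5:26258888-26259047 (Gm7361) on the plus strand.
Gm21680: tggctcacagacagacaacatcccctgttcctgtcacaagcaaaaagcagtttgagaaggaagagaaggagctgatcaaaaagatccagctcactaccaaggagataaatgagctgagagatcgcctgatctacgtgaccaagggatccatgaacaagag
Gm21655: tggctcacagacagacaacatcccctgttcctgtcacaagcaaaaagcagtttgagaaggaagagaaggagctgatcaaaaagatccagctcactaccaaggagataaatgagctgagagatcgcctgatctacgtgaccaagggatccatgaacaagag
Gm21698: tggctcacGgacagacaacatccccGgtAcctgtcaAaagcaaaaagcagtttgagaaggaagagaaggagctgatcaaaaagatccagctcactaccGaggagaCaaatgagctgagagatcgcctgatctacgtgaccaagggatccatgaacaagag
Gm21663: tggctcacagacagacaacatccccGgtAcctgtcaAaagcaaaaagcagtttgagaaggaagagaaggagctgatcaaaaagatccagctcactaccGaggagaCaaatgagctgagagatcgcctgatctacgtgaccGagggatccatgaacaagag
Gm7361: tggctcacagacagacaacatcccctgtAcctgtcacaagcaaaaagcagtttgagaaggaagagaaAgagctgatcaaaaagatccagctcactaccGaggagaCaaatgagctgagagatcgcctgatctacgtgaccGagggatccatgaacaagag
Speer4a: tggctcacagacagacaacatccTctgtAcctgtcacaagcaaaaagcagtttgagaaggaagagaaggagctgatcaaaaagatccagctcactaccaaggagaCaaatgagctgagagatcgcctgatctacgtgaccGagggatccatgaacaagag

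In these 160 bases Gm21655 and Gm21680 were identical, Gm21698 and Gm21663 each differed from Gm21680 at 6 bases, Gm7361 at 5 and Speer4a at 4. The copies were also alike upstream of the transcript. The next sequences are the 150 bases before the GENCODE start of the 4 members that the RefSeq promoter table (GRCm38.p6) held, printed to show how far the likeness extends beyond the transcripts. Capitals again mark differences from Gm21680, aligned to its promoter, and the stretches are at chr5:25972664-25972813 (Gm21680), chr5:25988651-25988800 (Gm21698) and chr5:25942382-25942531 (Gm21663) on the minus strand and chr5:26257541-26257690 (Gm7361) on the plus strand.
Gm21680: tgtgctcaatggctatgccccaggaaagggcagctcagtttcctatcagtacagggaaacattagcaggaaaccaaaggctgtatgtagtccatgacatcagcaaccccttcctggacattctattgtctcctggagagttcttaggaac
Gm21698: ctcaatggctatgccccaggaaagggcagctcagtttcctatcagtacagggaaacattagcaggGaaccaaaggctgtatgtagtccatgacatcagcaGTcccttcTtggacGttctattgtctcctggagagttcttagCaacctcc
Gm21663: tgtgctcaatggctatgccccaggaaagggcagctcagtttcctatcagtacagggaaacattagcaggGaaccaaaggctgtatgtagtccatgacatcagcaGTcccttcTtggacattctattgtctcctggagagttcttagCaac
Gm7361: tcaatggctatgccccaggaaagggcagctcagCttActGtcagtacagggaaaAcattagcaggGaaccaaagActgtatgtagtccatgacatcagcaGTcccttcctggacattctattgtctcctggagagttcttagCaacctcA

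Gm21698 differed from Gm21680 at 6 of these positions, Gm21663 at 5 and Gm7361 at 10. In the RefSeq promoter windows of 300 bases (250 before and 50 after the start), CG dinucleotides, the usual target of DNA methylation, numbered 1 in Gm21680, 2 in Gm21698, 3 in Gm7361 and 1 in Gm21663. The median over 32851 mouse promoters of that length was 7, and 14.1% of them held as few as Gm21680 and Gm21663, 23.3% as few as Gm21698 and 31.4% as few as Gm7361, or fewer. The E-box CANNTG, the motif of myogenic factors such as MyoD, occurred once in Gm7361 and was not found in the other 3, against 72.3% of all promoters with at least 1 match. The letters CCAAT (either strand) occurred once in Gm21680, Gm21698 and Gm21663 and not in Gm7361 (37.4% of all promoters), and TATAAA in none of the 4 (13.6%). These matches describe the windows and are not evidence of binding.

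Because counting depends on whether a read fits 1 place, every stretch of 150 bases, the length of 1 read, was looked up in the transcripts of all GENCODE M21 genes. In Gm7361, 2777 of 2846 stretches (97.6%) occurred in no other gene. The share was 42.4% in Gm21680, 35.8% in Gm21655, 23.6% in Gm21698 and 17% in Gm21663. Gm21655 and Gm21680 shared 1629 stretches with each other, and Gm21698 and Gm21663 shared 1744. Counts of Gm7361 can therefore be assigned more surely than those of the other 4, whose split between copies is uncertain. Reads came in pairs, but the lookup took 1 read at a time, so a pair may be placed where a single read could not. A lookup in transcripts leaves out unannotated copies, and the way the authors' counting treated reads with several matches, and whether it used strand, is not given in the sources used here.

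**Figure D1:**
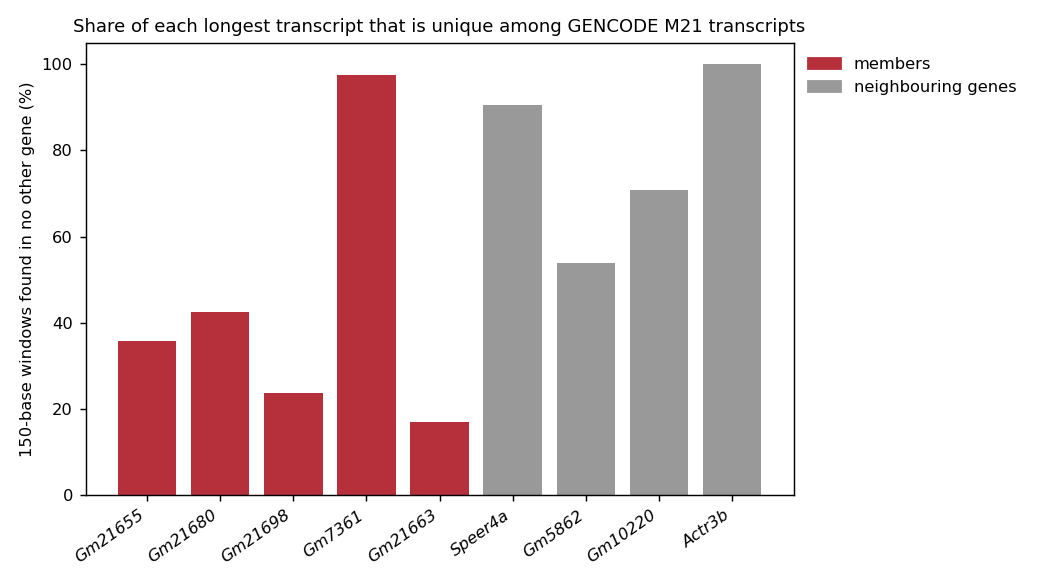
Share of 150-base stretches of the longest transcript (%, y axis) that occurred in no other GENCODE gene, for each gene on the x axis. Gm7361 reached 97.6% and the other members 17 to 42.4%.

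All 5 genes were read in every TET2-S97E library and were at or near 0 in every TET2-WT library. Gm21680 had the highest counts, 93 and 108 in the libraries of TET2-S97E clone 1 and 309 and 2448 in those of clone 2 (4.69, 3.51, 15.6 and 79.9 CPM). A single count was found in TET2-WT (clone 1 replicate 2). The genotypes did not overlap, and clone 2 was above clone 1. Mitochondrial genes gave 2.29, 2.12, 2.03 and 2.09% of the counts in the TET2-S97E libraries and 1.14, 1, 1.38 and 2.14% in those of TET2-WT, which overlap. The part of this difference in the levels of the 5 genes was not tested.

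Gm21655, the copy closest to Gm21680, had 14 and 17 counts in clone 1 and 148 and 996 in clone 2 (0.705, 0.553, 7.46 and 32.5 CPM). Gm21698 had 50 and 49 counts in clone 1 and 101 and 567 in clone 2 (2.52, 1.59, 5.09 and 18.5 CPM). Gm21663 had 33 and 20 counts in clone 1 and 54 and 225 in clone 2 (1.66, 0.65, 2.72 and 7.34 CPM). These 3 genes, like Gm7361, were at 0 in all 4 TET2-WT libraries, and their order between clones was that of Gm21680. Gm7361 had 12 and 20 counts in clone 1 and 64 and 489 in clone 2 (0.605, 0.65, 3.23 and 16 CPM).

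Over the 4 TET2-S97E libraries, Gm21680 averaged 25.9 ± 36.4 CPM (SD, n = 4). The mean was 10.3 ± 15.1 CPM for Gm21655, 6.93 ± 7.86 for Gm21698, 5.11 ± 7.33 for Gm7361 and 3.09 ± 2.96 for Gm21663. The SD exceeded the mean in every gene but Gm21663, but library by library Gm21680 was above the other 4 in all 4 libraries, while the order of those 4 changed. Scaled by exon length, the levels in clone 2 replicate 2 were 26.9 CPM per kb for Gm21680, 10.9 for Gm21655, 6.18 for Gm21698, 5.33 for Gm7361 and 2.56 for Gm21663. Per kb in clone 1 replicate 1 the order was Gm21680 (1.58), Gm21698 (0.841), Gm21663 (0.581), Gm21655 (0.237) and Gm7361 (0.202), so that only Gm21680 kept its place in these 2 libraries.

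**Figure D2:**
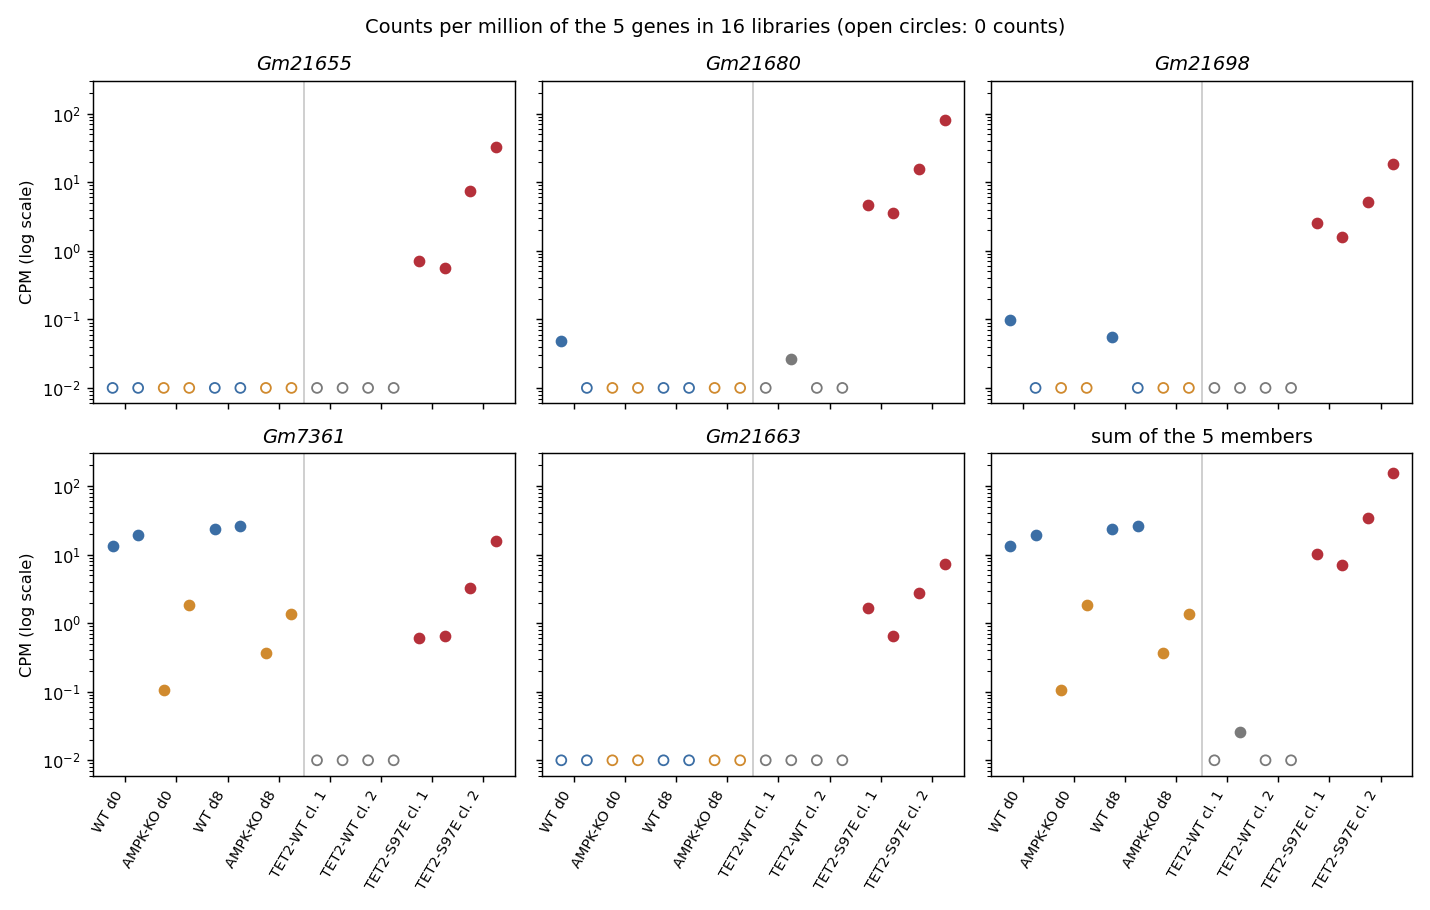
CPM of each gene and of their sum in each library (y axis, log scale), grouped by genotype, day and clone on the x axis; each filled point is a library and open circles mark 0 counts. The sum lay at 6.96 to 154 CPM in TET2-S97E and at 13.4 to 26.3 CPM in WT cells, where it came almost wholly from Gm7361.

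Summed over the 5 genes, TET2-S97E clone 1 had 202 and 214 counts and clone 2 had 676 and 4725, or 10.2, 6.96, 34.1 and 154 CPM. TET2-WT had 1 count in its 4 libraries together. Set against the limit of 3 counts per TET2-WT library, the mean CPM in TET2-S97E was at least 89.9-fold higher for Gm21655, at least 60.4-fold higher for Gm21698, at least 44.6-fold higher for Gm7361 and at least 27-fold higher for Gm21663. Without TET2-S97E clone 2 replicate 2 these bounds dropped to 25.4, 26.8, 13 and 14.6. For Gm21680 the ratio of 2958 counts to 1 count, corrected for depth, was 3220 with a 95% counting interval of 578 to 127000, which covers counting error only. Without TET2-S97E clone 2 replicate 2, which gave 2448 of those counts, it was 797 (142 to 31500). The same ratio for the sum was 6330 (1140 to 250000), and 1710 (306 to 67500) without that library. These ratios divide by a single observed count and are not comparable with the bounds of the other genes. Over the same limit of 3 counts per TET2-WT library, the mean was 226 times as high for Gm21680 (69.1 without that library) and 448 times for the sum (149). Across the tested genes, 3.71% were called higher and 3.28% lower in TET2-S97E (edgeR quasi-likelihood test, adjusted p under 0.05), and nothing about these 5 genes is read from that share, since the comparison chose them.

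The choice ranked 474 genes that were called higher, did not overlap between genotypes and had at least 10 counts in every TET2-S97E library. The 5 genes held the first 5 places, with fitted log2 fold changes of 11.1 (Gm21655), 10.9 (Gm21680), 10.5 (Gm21698), 10.1 (Gm7361) and 9.36 (Gm21663). Just outside lay Gm5862 at 9.06 and Gm10220 at 8.80, both from the same cluster, then Gm15128 on chromosome X (8.47), Speer4a (8.05) and Myh1, a myosin heavy chain of adult muscle fibres (7.75). Fitted values for genes at 0 in TET2-WT depend on the prior count and only give the order.

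The clones differed in the level of the 5 genes. That all 5 were read in both clones was fixed by the choice, which asked for at least 10 counts in every TET2-S97E library. The mean in clone 2 over that in clone 1 was 31.8 for Gm21655, 15.3 for Gm7361, 11.6 for Gm21680, 5.74 for Gm21698 and 4.35 for Gm21663. Within clone 2, replicate 2 was above replicate 1 in all 5 genes, by 5.13 times for Gm21680, 4.94 for Gm7361, 4.35 for Gm21655, 3.63 for Gm21698 and 2.7 for Gm21663. The median of this ratio over 12876 genes was 0.992, and 0.241% of them had a ratio as high as that of Gm21680. In clone 1 the ratio ran from 0.391 (Gm21663) to 1.08 (Gm7361). TET2-S97E clone 2 replicate 2 thus stood apart from its own replicate in these genes, and means over TET2-S97E rest largely on it.

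The make-up of the sum differed between the clones and, more so, between tables. Gm21680 gave 46, 50.5, 45.7 and 51.8% of the summed counts in the 4 TET2-S97E libraries, a similar share in each. Gm21655 gave 6.93 and 7.94% in clone 1 and 21.9 and 21.1% in clone 2, whereas Gm21698 gave 24.8 and 22.9% in clone 1 and 14.9 and 12% in clone 2. Gm7361 gave 5.94% (exact 95% interval 3.11 to 10.1), 9.35% (5.8 to 14.1), 9.47% (7.37 to 11.9) and 10.3% (9.49 to 11.3). In WT cells Gm7361 gave nearly everything, 98.9% (96.9 to 99.8) and 100% (99 to 100) at d0, and 99.8 and 100% at d8. These intervals cover counting error only. The shares are a description, since the other 4 genes were chosen for high counts in these same TET2-S97E libraries.

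**Figure D3:**
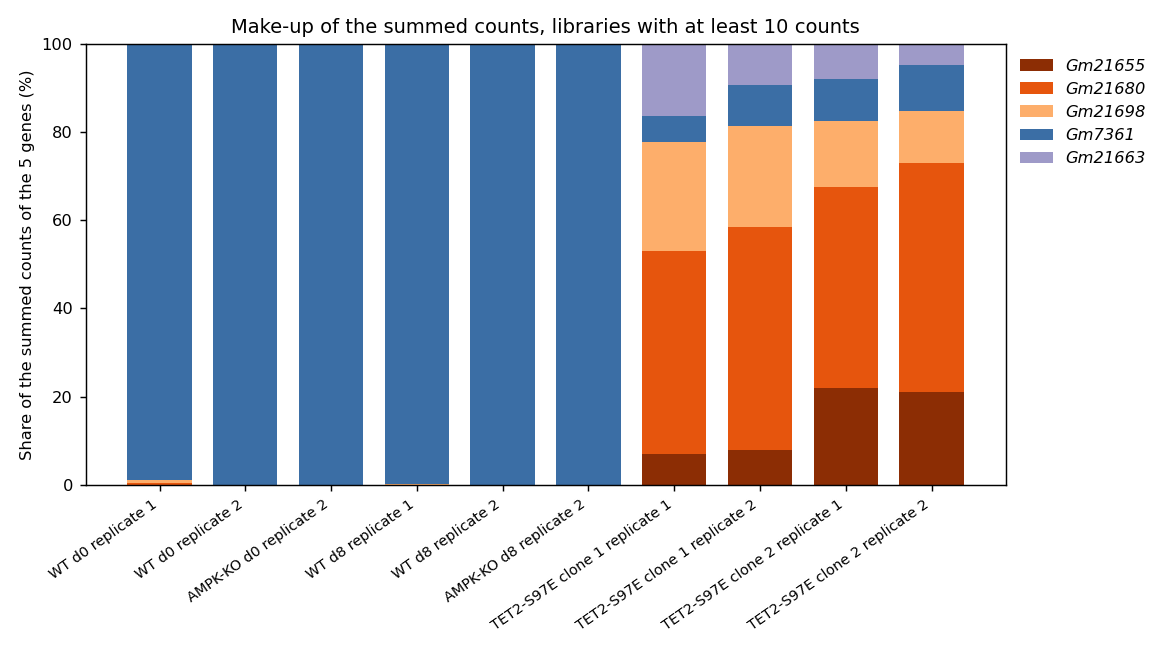
Share of the summed counts of the 5 genes (%, y axis) that each gene gave in the libraries with at least 10 such counts (x axis), as stacked bars. Gm7361 gave 98.9 to 100% in WT libraries and 5.94 to 10.3% in TET2-S97E libraries.

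The first table took no part in choosing the genes, and in it Gm7361 was the one member with counts to test. Gm7361 was read in WT myoblasts and myotubes and had fewer counts in AMPK-KO cells. At d0 its counts were 276 and 361 (13.3 and 19.6 CPM) in the WT libraries, but 2 and 40 (0.105 and 1.87 CPM) in those of AMPK-KO. At d8 the WT libraries gave 428 and 561 counts (23.6 and 26.3 CPM), and those of AMPK-KO 9 and 28 (0.367 and 1.36 CPM). The paper reported that cells without AMPK lost the potential to form myotubes. At d8 genotype and the state of differentiation therefore cannot be told apart. Every WT library was above every AMPK-KO library on both days.

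Mean Gm7361 was 16.4 ± 4.43 CPM in WT and 0.987 ± 1.25 in AMPK-KO at d0 (SD, n = 2 each), 16.7-fold lower. It was 24.9 ± 1.94 and 0.863 ± 0.702 CPM at d8 (n = 2 each), 28.9-fold lower. At d8 Gm7361 fell by 4.87 on the log2 scale (SE 1.01, edgeR quasi-likelihood test, adjusted p = 0.0405), when 3.98% of the 14329 genes tested were called lower. At d0 the fitted change was -4.03 (SE 0.977, 95% interval -5.94 to -2.11) with an adjusted p of 0.0762, which missed the threshold, and 2.83% of the genes were called lower. It was -3.14 without AMPK-KO d0 replicate 1 and -7.23 without AMPK-KO d0 replicate 2. The d8 change lay between -6.1 and -4.17 when 1 library was left out. Gm7361 was called at d0 by DESeq2 (adjusted p = 9.92e-05) and with the replicate number as a block (-4.3, adjusted p = 0.0337). Its d8 call was lost in 6 of 8 edgeR fits that left out a library, with adjusted p up to 0.159. An exact permutation test of 2 libraries against 2 cannot give a p below 0.33, so the calls rest on the spread shared across genes and groups.

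The sum of the 5 genes in place of the single ones gave -4.03 at d0 (SE 0.976, adjusted p = 0.0755) and -4.87 at d8 (SE 1.01, adjusted p = 0.0404) in the same test. The d8 call of the sum was lost when any one of the same 6 libraries was left out: WT d0 replicate 1 (adjusted p = 0.0532) or 2 (0.053), WT d8 replicate 1 (0.147) or 2 (0.159), and AMPK-KO d8 replicate 1 (0.149) or 2 (0.0578). The direction held in each case.

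No change of Gm7361 with differentiation passed the test. From d0 to d8 its fitted log2 change was 0.602 in WT (95% interval -1.02 to 2.23, adjusted p = 0.667), in a comparison that called 12.4% of genes, and -0.24 in AMPK-KO (adjusted p = 0.901), where 9.76% were called. The difference between these 2 changes was -0.842 (SE 1.3, adjusted p = 1). The percentage called for that difference was 0 across all genes by edgeR, with 729 genes at an unadjusted p under 0.05, and 60 genes called by DESeq2. None of these 3 contrasts passed for the sum either.

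The other 4 genes were almost silent in the first table. Gm21655 and Gm21663 were at 0 in all 8 libraries. Gm21680 had 1 count and Gm21698 had 2 in WT d0 replicate 1, and Gm21698 had 1 in WT d8 replicate 1, none of them above the limit of 3 counts. These 4 genes had too few counts to be tested, and a difference between WT and AMPK-KO was not detectable at this depth. Thus 1 of the 5 genes was tested in the first table and 5 of 5 in the second, where they passed through the TET2-S97E libraries alone.

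The neighbours of the 5 genes were taken by position, as the 45 other genes within 1 Mb of any of them. Of these, 17 were at 0 in all 16 libraries and 26 never exceeded 3 counts. Between the TET2 genotypes 9 neighbours were tested, 4 were called higher and 0 lower (3.71% and 3.28% over all genes). The 4 are Speer4a, Gm5862, Gm10220 and Actr3b, which passed the filter on low values through the TET2-S97E libraries, so nothing is read from their number or from their calls, and their values below are a description. Of these calls, that of Gm10220 was lost without TET2-WT clone 1 replicate 2 or clone 2 replicate 1, and that of Actr3b without any one of the TET2-WT libraries. The call of Actr3b was also lost with the replicate number as a block. Calls here treat libraries of a clone as separate, and with counts summed per clone no gene of the whole table was called.

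Speer4a, the Speer gene of the cluster, had 54 and 45 counts in TET2-S97E clone 1 and 150 and 982 in clone 2, against 1, 0, 0 and 3 in TET2-WT. The genotypes did not overlap, and clone 2 replicate 2 was highest. Gm5862 had 37, 32, 23 and 183 counts and Gm10220 had 23, 14, 30 and 161, both with 0 in TET2-WT, so their means were at least 21.9-fold and at least 18.3-fold higher (11.8 and 9.09 without TET2-S97E clone 2 replicate 2). For these 3 genes the values are a description, since they stand next to the members in the ranking that chose those. These 3 genes resemble the members to different degrees. Over the whole transcript Gm10220 was 94.58% identical to Gm21680 and Gm5862 65.55%, the last exon of Gm5862 being shorter (1320 against 2273 bases). In the coding sequence they were 96.13% and 98.13% identical to Gm21680. Of their 150-base stretches, 90.5% (Speer4a), 53.8% (Gm5862) and 70.9% (Gm10220) were found in no other gene, and Gm5862 shared 588 of them with Gm21655 and 402 with Gm21680. The part of shared reads in their counts was not tested.

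Actr3b, which encodes an actin-related protein and is the nearest gene outside the cluster, starts 160 kb before Gm21655 and has no 150-base stretch in common with another gene (100% unique). It had 37 and 51 counts in TET2-S97E clone 1 and 220 and 1522 in clone 2, and 0, 1, 12 and 6 in TET2-WT. The genotypes did not overlap, and clone 2 replicate 2 was again highest, 4.48 times its replicate. Mean Actr3b was 16.1 ± 22.8 CPM in TET2-S97E and 0.197 ± 0.253 in TET2-WT (n = 4 each), 81.5-fold higher, and 24.7-fold without clone 2 replicate 2. No test is given for Actr3b here, since it passed the filter on low values through the TET2-S97E libraries.

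Among WT and AMPK-KO cells, Actr3b had fewer counts where AMPK was absent. The d0 libraries gave 32 and 51 counts for WT, 5 and 9 for AMPK-KO, and the d8 libraries 35 and 22 for WT, 4 and 1 for AMPK-KO. Its means were 6.31-fold lower in AMPK-KO at d0 and 14-fold lower at d8, without overlap on either day. Leaving out 1 library moved its fitted log2 change between -3.03 and -2.15 at d0 and between -4.74 and -3.16 at d8. Here too Actr3b passed the filter through the libraries in which it was high, those of WT, so nothing is read from a test of it. Of 7 neighbours tested in this table, 7 had lower fitted values at d0, where 49.7% of all genes had higher ones (median log2 change -0.664 against -0.00102). By edgeR 0 of them passed (3 at an unadjusted p under 0.05) and DESeq2 called 2, while 2.83% of all genes were called lower by edgeR. The 7 include Actr3b and also Gm43143, which was highest in WT at d0 (mean 0.611 CPM, against 0.268 in AMPK-KO), so nothing is read from that tally. At d8, 2 of the 7 had higher and 5 lower fitted values, where 53% of all genes had higher ones (median -0.211 against 0.0392). The single call there was that of Actr3b, from which nothing is read. It was lost without any one of the AMPK-KO libraries or of the WT d8 libraries. Over all genes, 3.98% were called lower at d8.

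The remaining 5 neighbours tested in the TET2 table did not pass. Xrcc2, a DNA repair gene, had a log2 change of 0.391 (edgeR adjusted p = 0.389). The log2 change was -0.353 for 1700096K18Rik (adjusted p = 0.419) and 0.452 for Kmt2c, a histone methyltransferase gene (0.455). It was -0.252 for Galnt11, a glycosyltransferase gene (0.522), and -0.00241 for Prkag2, a regulatory subunit of AMPK (0.996).

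Between the outermost members lie 11 other genes, of which 9 had at least 10 counts in a library of the TET2 clones. In 8 of these every TET2-S97E library was above every TET2-WT library, in which their highest count was 3. They are Gm21671, Gm1979, Gm5862, Speer4a, Gm7347, Gm10471, 5031410I06Rik and Gm10220, named here after their values were seen, and the exception was Gm6089 with 0, 0, 0 and 12 counts. Across all 15657 genes with at least 10 counts in such a library, 7.03% had this order, but nothing is read from that share here: the genes inside the cluster reached 10 counts through TET2-S97E libraries alone, and several share 150-base stretches with the members. 5031410I06Rik, for example, was 99.67% identical to Gm21698 and shared 1792 stretches with it. Outside, 8 of 34 neighbours had at least 10 counts in a TET2 library, all of them on the side of Gm21655, and 1, Actr3b, had the order. Another, Gm43143, had at least 10 counts in libraries of WT and AMPK-KO cells alone, such as 13 and 11 in WT at d0. No gene beyond Gm7361 had enough counts to compare.

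**Figure D4:**
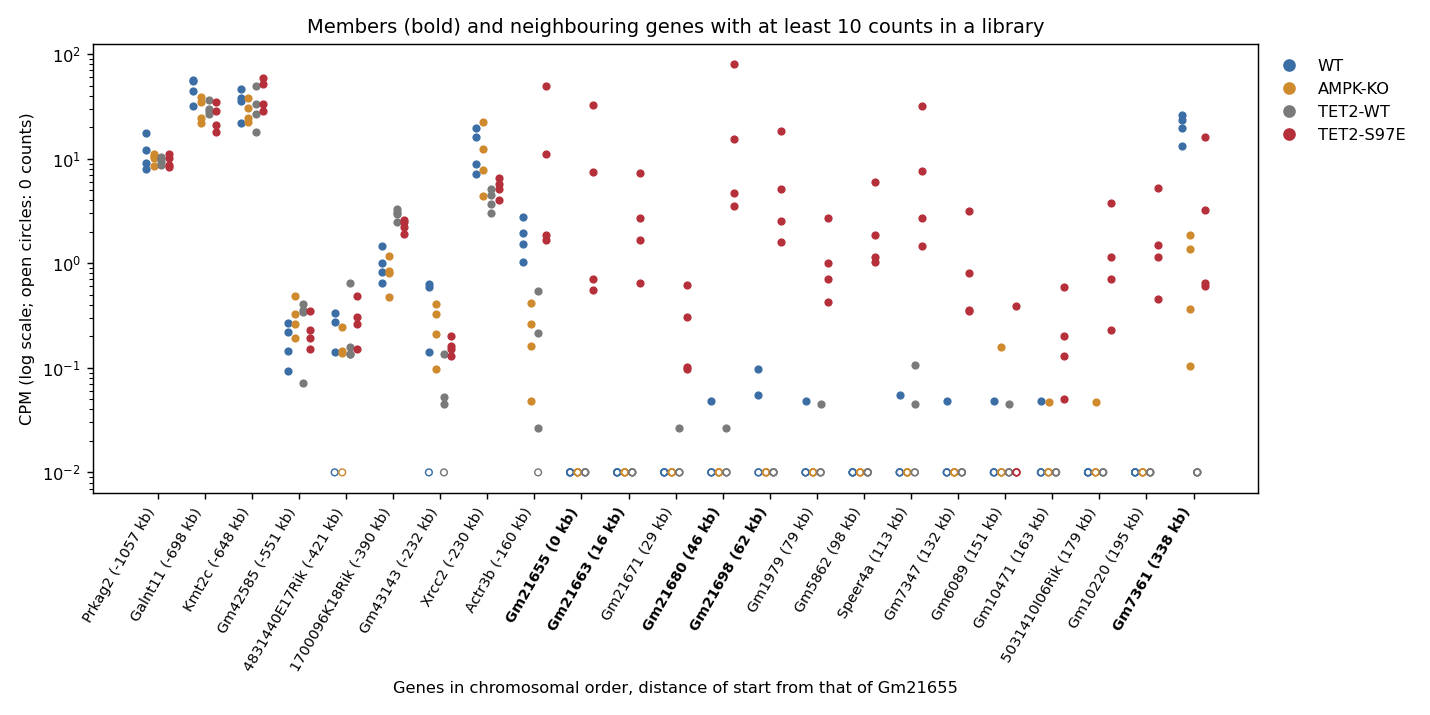
CPM (y axis, log scale, open circles at the bottom for 0 counts) of the 5 genes (bold) and of neighbours with at least 10 counts in a library, in chromosomal order with the distance of each start from that of Gm21655; each point is a library, coloured by genotype. TET2-S97E points lie above all TET2-WT points from Actr3b to Gm7361 with the exception of Gm6089.

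Genes related by name or by tissue were mostly silent. Of 14 Speer-named genes, 11 were at 0 in all 16 libraries and 1, Speer4a, was tested in the TET2 table. In the first table none was tested. A list of 30 germ line genes, several of them known to be held silent by promoter methylation in somatic cells, had 19 that never exceeded 3 counts. Between the TET2 genotypes 4 of them were tested, 0 were called higher and 1 lower (3.71% and 3.28% over all genes), with a median log2 change of -0.0721 against 0.011 over all genes. The gene called was Tdrkh, a piRNA pathway gene, at -1.13 (SE 0.268, edgeR adjusted p = 0.0359), but not with the replicate number as a block (adjusted p = 0.0524). That call was lost without TET2-WT clone 1 replicate 1 (0.0825), clone 1 replicate 2 (0.0854) or clone 2 replicate 1 (0.101), and without TET2-S97E clone 1 replicate 1 (0.0894) or 2 (0.0608). Rhox5, an X-linked homeobox gene, had a log2 change of 1.02 (adjusted p = 0.518), Brdt, a testis bromodomain gene, -0.168 (0.717) and Sycp1, of the synaptonemal complex, 0.0236 (0.989).

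Among WT and AMPK-KO cells 5 germ line genes were tested, and Dazl, which encodes an RNA-binding protein of germ cells, was the one called. At d0 its counts were 0 and 1 without the knock-out and 13 and 46 with it, and 0.698% of genes were called higher there. Dazl passed the filter through the AMPK-KO d0 libraries, and its call was lost when any one of the 8 libraries was left out, so nothing is read from it. At d8 none of the 5 was called, and 1 was at an unadjusted p under 0.05.

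Markers of muscle cells were read in every library, and several of those of myotubes moved with the 5 genes between the TET2 genotypes. All 10 markers of C2C12 myoblasts and myotubes exceeded 3 counts in every library but AMPK-KO d0 replicate 2, where 8 did. Their summed level was 6320 and 7820 CPM in TET2-WT clone 1, 5160 and 4540 in clone 2, 13000 and 8800 in TET2-S97E clone 1 and 7060 and 5830 in clone 2, with Vim, an intermediate filament gene, the most abundant in each. Acta1, the skeletal muscle actin gene, was 2.67, 3.9, 13 and 111 CPM in TET2-WT and 3310, 839, 991 and 181 in TET2-S97E, all at d0. Myog, a transcription factor of muscle differentiation, was 0.407 to 13.9 CPM in TET2-WT and 42.1 to 180 in TET2-S97E, and Ckm, muscle creatine kinase, 0.542 to 13.4 and 19.8 to 200. These 3 markers were named after their values were seen. Of the 10 markers, 5 were higher in every TET2-S97E library than in any of TET2-WT (these 3, Myod1 and Myh3), and 5 overlapped (Vim, Des, Cdh15, Myf5 and Musk). Over all 15657 genes with at least 10 counts in a library of the TET2 clones, 7.03% were higher in this way. Musk, a receptor of the neuromuscular junction, was 13.8 and 12.3 CPM in TET2-S97E clone 2, below the 14.4 to 20.6 of TET2-WT, and 71.8 and 36.5 in clone 1. Within TET2-S97E, Acta1, Myog and Ckm were lowest in clone 2 replicate 2, where the 5 genes were highest. Among WT and AMPK-KO cells at d0, Myog was 29.5 and 19.6 CPM in WT and 0.628 and 0.561 in AMPK-KO, and Acta1 was 70 and 39.2 against 12.6 and 2.94, the direction of Gm7361. At d8 Myog was 254 and 429 CPM in WT and 63.9 and 191 in AMPK-KO, again the direction of Gm7361, while Acta1 (2990 and 3630 against 1100 and 6420) and Ckm (31.1 and 94.6 against 91.2 and 407) overlapped. The part of these markers in the levels of the 5 genes was not tested. The 8 markers of testis germ cells, the tissue in which Speer genes are known, summed to 0.403 to 0.587 CPM in TET2-S97E and to 0.366 to 0.764 in TET2-WT, ranges that overlap, with Sycp3 the most abundant in TET2-S97E clone 2 replicate 2 (0.228 CPM). The endothelial markers summed to 0.14 to 3.66 CPM over the 16 libraries. Of the 3 haematopoietic markers Cd68 alone exceeded 3 counts, and their sum was 0.844 to 6.65 CPM, highest in TET2-S97E clone 1, where the 5 genes were lower than in clone 2. In bulk samples, a change in the share of cells that express a gene and a change in RNA per cell cannot be told apart.

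The edited genes were read in every library. Prkaa1 fell by 1.01 on the log2 scale in AMPK-KO at d0 (edgeR adjusted p = 0.0116) and was at -0.598 at d8 (0.0419). Prkaa2 was at -2.43 at d0 (0.0527) and fell by 2.96 at d8 (0.019). Tet2 was 34.2, 22.5, 58.3 and 56.4 CPM in TET2-WT and 12.9, 21.9, 7.87 and 22.1 CPM in TET2-S97E, without overlap, a log2 change of -1.40 (SE 0.386, adjusted p = 0.0621). Counts of a whole gene do not show a single changed codon, so these values do not check the S97E label. The part of Tet2 levels in those of the 5 genes was not tested.

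Across all 16 libraries, the 5 genes tested in both tables whose log2(CPM + 1) followed the sum most closely were Zfp985 (Pearson r = 0.926), Pax7 (0.918), Pxk (0.878), Sec11c (0.861) and Actr3b (0.861), out of 13077 genes compared. Each r is a description over libraries that fall into separate genotypes and come from 2 tables scaled separately, and no p is given. Within the 8 TET2 libraries r was 0.982 for Zfp985, 0.984 for Pax7 and 0.962 for Actr3b. Within the 8 libraries of the first table it was 0.921, 0.97 and 0.883. The TET2 libraries chose the members, so a high r there is built in for any gene read mainly in TET2-S97E. In the first table the sum was almost wholly Gm7361, so r over 16 libraries joins unlike sums.

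Pax7, the transcription factor of muscle satellite cells, had 167 and 169 counts in WT at d0 and 138 and 177 at d8, against 0, 1, 0 and 2 in AMPK-KO. It had 1, 6, 1 and 2 counts in TET2-WT, and 42 and 51 in TET2-S97E clone 1 and 50 and 323 in clone 2. Every TET2-S97E library was thus above every TET2-WT and AMPK-KO library in Pax7, with clone 2 replicate 2 highest. Gm7361 differed from this in AMPK-KO, where replicate 2 at d0 and at d8 (1.87 and 1.36 CPM) exceeded both libraries of TET2-S97E clone 1 (0.605 and 0.65 CPM). Zfp985, a zinc finger gene on chromosome 4 as is Pax7, averaged 0.753 CPM in WT, 0.084 in AMPK-KO, 0.0132 in TET2-WT and 1.59 in TET2-S97E. Pxk, a PX-domain kinase gene, and Sec11c, of the signal peptidase, were abundant in all groups (mean 24.1 to 38.2 and 13.5 to 20.4 CPM), so their likeness lies in a small change on a high level. The other 4 members, unlike Pax7, did not exceed 3 counts in any WT library.

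**Figure D5:**
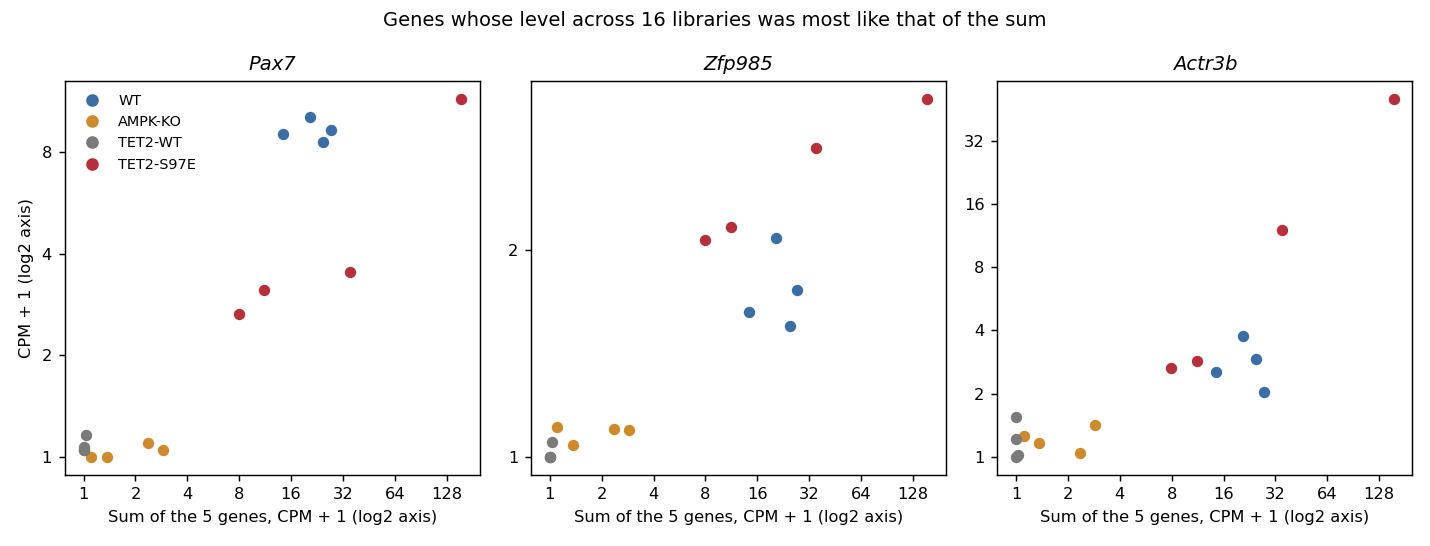
CPM + 1 of Pax7, Zfp985 and Actr3b (y axes, log2) against that of the summed 5 genes (x axis, log2); each point is one of 16 libraries, coloured by genotype. AMPK-KO and TET2-WT libraries lie at the lower left in each panel, and TET2-S97E clone 2 replicate 2 (154 CPM) is the point at the far right.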

How the data were processed

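RNA was measured by paired-end RNA-seq (2 × 150 bases) in 16 C2C12 libraries. Per the methods and labels, the authors trimmed reads with Trim Galore (0.4.5), aligned them to GRCm38 (mm10) with STAR (2.5.3a) and deposited whole-number counts per gene from featureCounts (1.5.3) with GENCODE M12. Strand setting and the handling of multiply mapped reads are not given in the sources used here. Gene IDs were matched to GENCODE M21 (49326 of 49585), which supplied positions and transcripts.

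The 5 genes, the gene lists and the tests were chosen with earlier results of these data known. Each table was fitted alone with edgeR (4.0.16 in R 4.3.3): TMM scaling, filterByExpr, quasi-likelihood test, Benjamini-Hochberg adjustment over all genes, threshold 0.05. The first fit had 1 mean for each of 4 groups, the second genotype alone. For the test of the sum, 1 summed count replaced the 5 members. p-values measure the spread between libraries, which may be technical. The first table had 14329 and the second 13433 genes tested. CPM uses TMM-scaled totals, and CPM per kb divides by exon length. Transcripts were aligned with edlib (1.3.9.post1). No genome sequence was used, and proteins were not compared.

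Named were the 5 members, the edited genes, the muscle markers, and Sycp3 and Cd68 of the other cell types. Also named were the neighbours tested between the TET2 genotypes and further neighbours whose values had been seen. To these were added at most 6 tested genes per other list with the lowest adjusted p, the next 5 genes in rank and the 5 most alike over 16 libraries. Alternatives were DESeq2 (1.42.0) and its size factors, other filters, a replicate block, single days, summed clones and leaving out each library; those for Gm7361, Actr3b, Speer4a, Gm5862, Gm10220, Tdrkh and Dazl, and the ratios of counts without TET2-S97E clone 2 replicate 2, were chosen after seeing the data. The tests were checked on simulated counts drawn independently for each library, so the check does not cover libraries that share a clone.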

Additional observations from a re-analysis of the deposited data

Results flagged for a closer look

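For 23 measures (CPM of the members and of their sum, of the edited genes, and of the named neighbouring, germ line and most alike genes), the 4 libraries of each TET2 genotype were checked for a library far from the rest. Chance alone flags about 1 of 20 groups of independent libraries. These libraries come in pairs from the same clone, so that rate need not hold here. In 4 genes TET2-S97E clone 2 replicate 2 stood out on the high side. Gm21680 was 79.9 CPM there, against 15.6 in the next library. Gm7361 was 16 CPM against 3.23. Gm5862 was 5.97 CPM against 1.86, and Pax7, which lies on another chromosome, was 10.5 CPM against 2.52. The library held 30081651 counts, and the median gene in it was at 0.992 times its replicate. Whether the cells of this library differed from those of its replicate was not tested.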

How the results depend on the processing

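With DESeq2's size factors every result kept its side of the threshold and its direction. The DESeq2 Wald test called the sum at d0 (-4.06, adjusted p = 9.44e-05; 1 member) and more genes in each comparison: 1393 at d0, 1656 at d8, 2762 from d0 to d8 in WT, 2532 in AMPK-KO, 60 for their difference and 1825 in the TET2 table, against 505, 766, 1771, 1398, 0 and 938. Without a filter on low counts the sum at d0 passed (-4.03, 1 member), the counts were 2026, 2503, 3293, 3039 and 449 in the first table, and 9 neighbours were called in the TET2 table. With at least 10 counts in every library, 204 genes were called at d0 and 277 at d8, 0 members at d8, and 0 Speer-named and 0 neighbouring genes in the TET2 table, because the members, Speer4a and Actr3b were no longer tested; the sum gave no value. With the libraries of d0 alone, 335 genes were called. With counts summed per clone, 0 genes were called in the TET2 table, and so 0 Speer-named, 0 neighbouring and 0 germ line genes.

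With the replicate number as a block in edgeR the sum at d0 passed (-4.31, adjusted p = 0.0338, with 1 member called). Between the TET2 genotypes 0 germ line genes and 3 neighbours were then called, since Tdrkh (0.0524) and Actr3b (0.0516) missed the threshold. Libraries of a number deviated together in the first table (correlations 0.119 to 0.324) and not always in the second (-0.0355 to 0.512), and the labels do not say what a number marks.

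Leaving out 1 library moved the genes called at d0 to 17 to 613, lowest without AMPK-KO d0 replicate 1, and at d8 to 107 to 902, lowest without WT d8 replicate 2. From d0 to d8 they were 0 to 2260 in WT (0 without WT d0 replicate 2 or WT d8 replicate 2), 0 to 1737 in AMPK-KO (0 without AMPK-KO d0 replicate 1) and 0 to 6 for the difference. In the TET2 table they were 304 to 1092, lowest without TET2-WT clone 2 replicate 1, with 0 to 1 germ line genes. The sum at d8 was -6.1 to -4.17 with 0 to 1 members called. From d0 to d8 in AMPK-KO it was -1.46 to 2.96 and turned positive without AMPK-KO d0 replicate 2 (2.96) or AMPK-KO d8 replicate 1 (0.437); the difference from WT was -2.06 to 2.39 and turned positive without AMPK-KO d0 replicate 2 (2.39). None of these 3 passed. For single genes with all but 1 library of a group the lone library was taken to vary like the other groups. The causes were not tested. Counts of 0 limit a level to 0.079 to 0.165 CPM.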
